A study of Homo sapiens with 18 samples.

Results

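The genes described here encode the proteins of the mitochondrial ribosome. They were taken as all protein-coding rows whose symbol is MRPL or MRPS followed by a digit, without a hyphen, and which the files of both cell lines list. That gave 78 genes, 49 named MRPL and 29 named MRPS, among 15517 genes listed in both lines. All 78 passed the filter on low values in both lines. The study exposed 2 human acute myeloid leukaemia lines, HL-60 and MOLM-13, to decitabine (DAC), to NTX-301 or to their solvent dimethyl sulfoxide (DMSO) for 48 h, with 3 samples in each of the 6 groups and 18 in all. HL-60 is a promyelocytic line and MOLM-13 a monocytic line with a KMT2A rearrangement. DAC and NTX-301 are nucleoside analogues that deplete DNA methyltransferase 1. The labels give 30 nM in the case of HL-60 and 15 nM in that of MOLM-13, without saying if NTX-301 is included, and dose cannot be told apart from line. The labels name no engineered change in any group, and every sample was a bulk culture of a single cell line.

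Mitochondria carry their own ribosome, which reads only the few messenger RNAs that mitochondrial DNA encodes, all of them for subunits of the respiratory chain and ATP synthase. Its RNAs come from mitochondrial DNA, but every protein of it is encoded in the nucleus, made in the cytosol and imported. Leukaemia cells of the myeloid lineage are known to depend on mitochondrial translation for respiration.

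By role, 51 of the 78 members belong to the large subunit, which joins amino acids, and 26 to the small subunit, which reads the messenger RNA. These counts differ from the symbols, because MRPS30 and MRPS18A carry small-subunit names but sit in the large subunit. The remaining member, MRPS36, is known as a part of the 2-oxoglutarate dehydrogenase complex and not of the ribosome. Of the 77 ribosomal members, 48 have a counterpart in bacteria and 29 do not. The 5 mitoribosomal proteins with other names (DAP3, PTCD3, AURKAIP1, CHCHD1 and GADD45GIP1) are no members and were counted apart.

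The deposited values are normalized log2 expression values, and how they were normalized is not stated. The files of the 2 lines list different genes, so a shared normalization cannot be assumed and no level was tested between lines. The median SD of the members within a group was between 0.032 and 0.048 in the 6 groups. The labels do not say whether replicates were separate cultures. A p-value thus weighs a change only against the spread between these samples, and what that spread stands for is not known. Among defining markers, HOXA9 and MEIS1 were listed in MOLM-13 alone. The granule gene MPO had a mean log2 value of 18.71 in HL-60 and 13.04 in MOLM-13 under DMSO. Other granule genes did not share that order: AZU1 (12.8 and 14.94), ELANE (14.26 and 14.94) and PRTN3 (16.07 and 16.89) were higher in MOLM-13. CTSG stood at 13.73 and 13.45. These levels are given as a description only. Of 4 T cell, 4 B cell and 4 epithelial markers, 1, 1 and 2 were listed in MOLM-13 and 0, 1 and 1 in HL-60. In a bulk sample, fewer cells of a type and less RNA per cell cannot be told apart.

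In untreated cells the members were well expressed. Under DMSO their mean log2 value had a median of 11.32 in HL-60 and 11.87 in MOLM-13, against a median over all genes of 9.52 and 9.79. All but 1 member in HL-60 (77 of 78) and all 78 in MOLM-13 lay above the median of all genes. Levels of different genes were set side by side only after dividing the linear value by exon length in kilobases, on the reading that the deposited values were not already divided by length, which is not stated. On that scale the members spanned 24-fold in HL-60 and 25.5-fold in MOLM-13, and 55 and 51 of them lay within 2-fold of the members' median. In HL-60 the highest was MRPL3, a large-subunit protein near the catalytic centre, at 8759 ± 191 per kb (SD, n = 3), followed by the small-subunit protein MRPS34 at 6199 ± 231. The lowest in HL-60 was MRPS36 at 365.7 ± 7.51. In MOLM-13 the highest were MRPL33 at 11000 ± 395 and MRPL13 at 10420 ± 436, neighbours in the order whose means ± SD overlap. The lowest in MOLM-13 was MRPS33 at 430.7 ± 17.1. The lengths merge the exons of all coding transcripts of a gene, which can exceed the length of its main mRNA. For MRPS33 that gave 4.58 kb. Its undivided log2 value in MOLM-13, 10.95, was above that of MRPL53 (9.99), so this order depends on the lengths used.

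Both drugs lowered nearly all members in MOLM-13. A gene is called changed below where limma's test, fitted to all genes of a line and adjusted by Benjamini-Hochberg over all of them, gave an adjusted p under 0.05. DAC lowered 67 of the 78 members and raised none, where 36.6% of all 17475 genes were called, 15.4% higher and 21.2% lower. NTX-301 lowered 71 and raised none, where 45.1% of all genes were called, 20.3% higher and 24.8% lower. The median log2 change over the members was -0.20 with DAC and -0.24 with NTX-301, or -12.9% and -15.1% on the linear scale, while the median over all genes was 0.00 with each drug. The changes were small and of like size across the members: with NTX-301 the middle part of the members, from the lower to the upper quartile, ran from -0.29 to -0.19, with a median SE of 0.037. Highly expressed genes as a whole leaned the same way in MOLM-13, since among the 8445 genes whose log2 values averaged 10 or more the share called lower was 39.9% with DAC and 45.9% with NTX-301, at medians of -0.06 and -0.07.

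In HL-60 the members moved less, and fewer of them were called. DAC lowered 36 members and raised 1, where 24.2% of all 17046 genes were called, 11.6% higher and 12.6% lower. The median change over the members was -0.09 log2, against 0.00 over all genes and -0.02 over genes whose log2 values averaged 10 or more, of which 21.7% were called lower. NTX-301 lowered 23 members and raised 3, where 37.4% of all genes were called, 18.3% higher and 19.2% lower. The members' share called with NTX-301, 33.3%, was thus near the background, and their share lower was 23 of 78 where 33.7% of genes with a mean of at least 10 were lower. The members' median with NTX-301 was -0.04. The NTX-301 counts depended on scaling: 31 members lower and 2 higher with each sample centred on its median, and 17 and 5 after quantile normalization.

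Sample by sample the shift was visible without a model. The value of each member minus its DMSO mean in the same line was taken, and the median over the 78 members was computed in every sample. In MOLM-13 that median was -0.03, 0.03 and 0.01 in the DMSO samples, -0.17, -0.19 and -0.23 with DAC and -0.21, -0.25 and -0.25 with NTX-301. The treated MOLM-13 samples did not overlap the DMSO samples. In HL-60 it was -0.01, 0.02 and 0.00 with DMSO, -0.09, -0.12 and -0.06 with DAC and -0.06, -0.06 and -0.01 with NTX-301. All 3 DAC samples of HL-60 lay below DMSO, while the third NTX-301 sample lay level with the lowest DMSO sample.

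**Figure D1:**
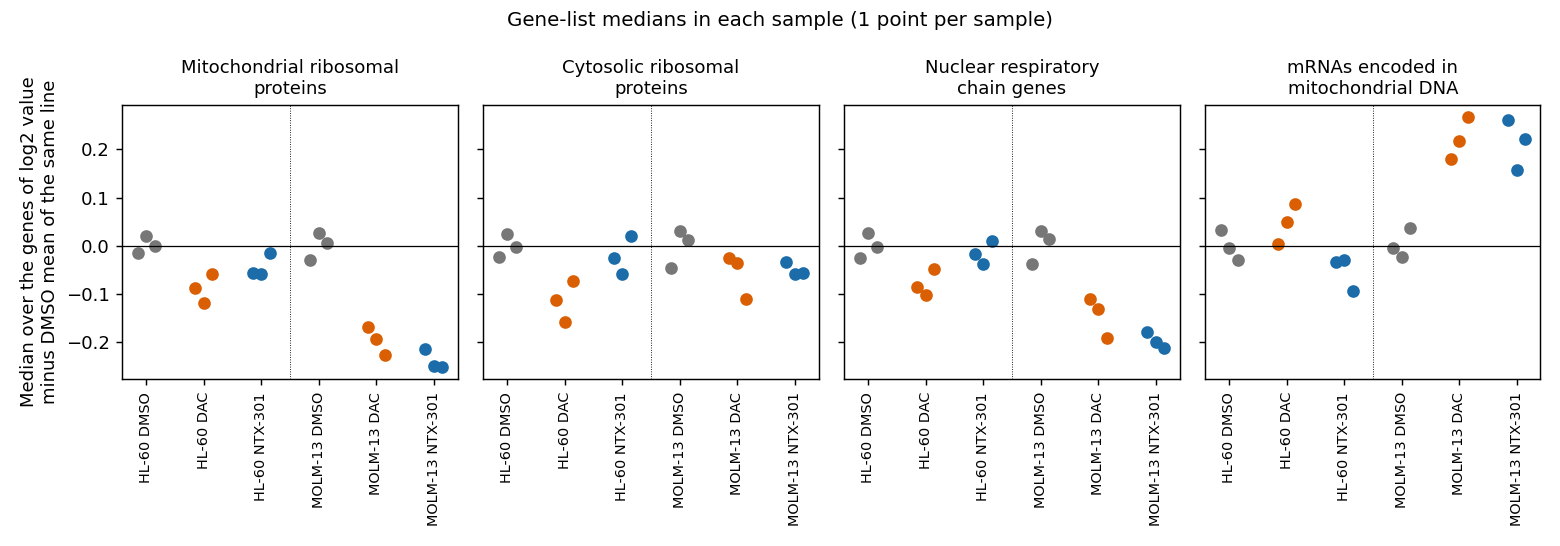
Median over the genes of 4 lists of the log2 value minus the DMSO mean of the same line (vertical axis), 1 point per sample, by line and treatment (horizontal axis; grey DMSO, orange DAC, blue NTX-301). The members and the nuclear respiratory chain genes lay below DMSO in all 6 treated MOLM-13 samples, and the mRNAs encoded in mitochondrial DNA lay above it.

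**Figure D2:**
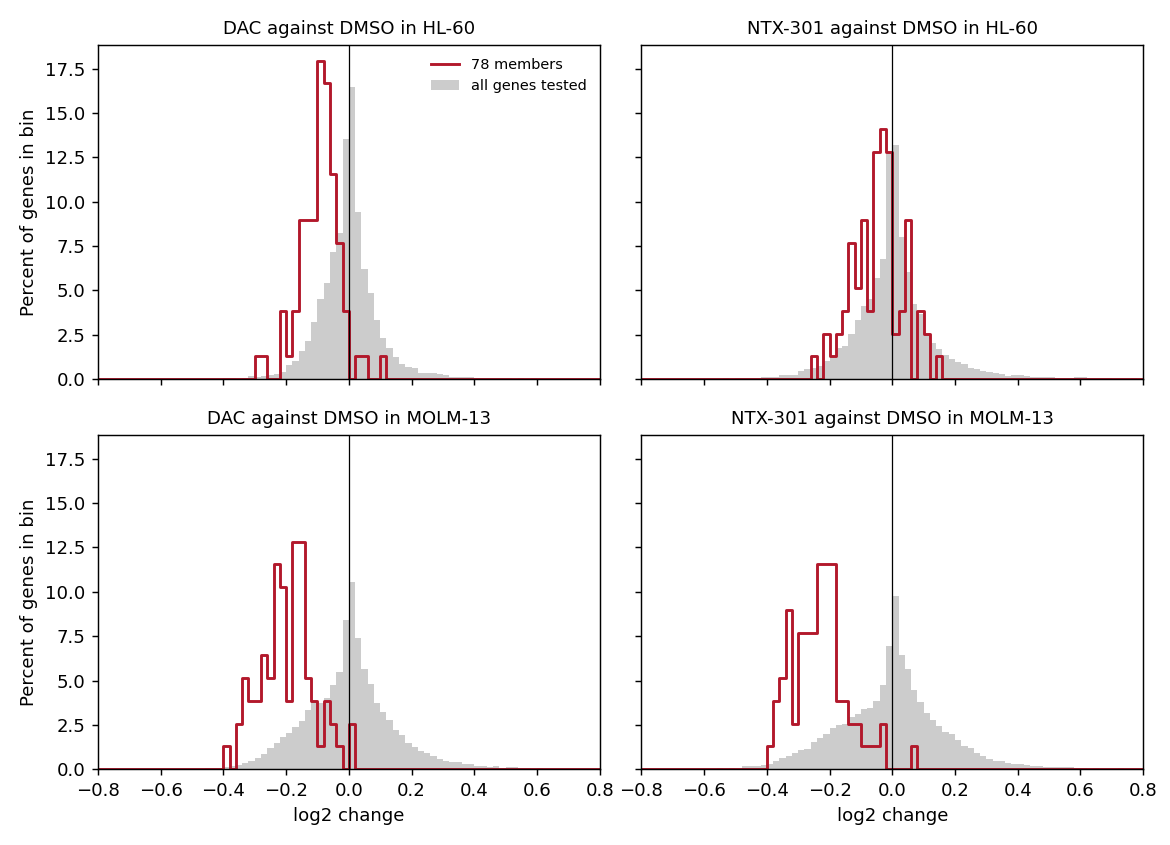
Distribution of log2 changes against DMSO (horizontal axis) as the percent of genes in each bin (vertical axis), for the 78 members (red line) and all genes tested (grey bars), in the 4 drug-against-DMSO comparisons. In MOLM-13 the members sit left of the peak of all genes, at medians of -0.20 and -0.24, and in HL-60 at -0.09 and -0.04.

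Members of both subunits fell. With NTX-301 in MOLM-13, 47 of 51 large-subunit members and 23 of 26 small-subunit members fell, at median changes of -0.24 and -0.23. With DAC there, 44 and 22 fell, at -0.18 and -0.21. Members with and without a bacterial counterpart were as close, with 44 of 48 and 26 of 29 lower under NTX-301. The difference between these subgroups was not tested. Among the 5 mitoribosomal proteins with other names, 4 fell with DAC and 5 with NTX-301 in MOLM-13, led by CHCHD1 with DAC (-0.31 ± 0.0359, SE) and AURKAIP1 with NTX-301 (-0.32 ± 0.0511). In HL-60, 2 of these 5 fell with DAC (GADD45GIP1 and CHCHD1) and none was called with NTX-301. The shares of all genes called lower were 21.2% (DAC) and 24.8% (NTX-301) in MOLM-13, and 12.6% and 19.2% in HL-60.

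MRPL54, a large-subunit protein found in mitochondria and not in bacteria, had the lowest change with DAC in both lines. In MOLM-13 its log2 values were 11.85, 11.95 and 11.95 with DMSO, 11.54, 11.57 and 11.50 with DAC and 11.59, 11.56 and 11.48 with NTX-301. Neither drug group overlapped DMSO, and the drug groups overlapped each other. It fell by 0.38 log2 with each drug (SE 0.0376), and limma's adjusted p was 1.98e-05 (DAC) and 1.25e-05 (NTX-301). Its HL-60 values were 10.84, 10.88 and 10.94 with DMSO, 10.58, 10.55 and 10.67 with DAC and 10.65, 10.67 and 10.70 with NTX-301. Again both drug groups lay below all DMSO samples, at -0.29 ± 0.0361 (adjusted p = 6.02e-05) and -0.22 ± 0.0361 (adjusted p = 0.000285).

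MRPL54 is 1 of 14 members that were lower in all 4 drug-against-DMSO comparisons, or 17.9% of the members, where 3.55% of the 15474 genes tested in both lines were. These comparisons share DMSO samples within a line. The others are MRPL1, MRPL3, MRPL24, MRPL30, MRPL35, MRPL38, MRPL48, MRPL57, MRPL58, MRPS9, MRPS17, MRPS26 and MRPS34. MRPL58, also known as ICT1, releases stalled peptide chains and works as a built-in part of the large subunit. Its values in HL-60 were 11.07, 11.06 and 11.02 with DMSO, 10.86, 10.81 and 10.84 with DAC and 10.81, 10.81 and 10.90 with NTX-301. In MOLM-13 they were 11.23, 11.26 and 11.28 with DMSO, 11.02, 10.98 and 10.95 with DAC and 11.01, 10.95 and 10.96 with NTX-301. No treated sample of either line reached the DMSO samples, and the falls were of like size, between 0.21 and 0.28 log2 in the 4 comparisons (-0.21, -0.21, -0.27 and -0.28).

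MRPS26, a small-subunit protein without a bacterial counterpart, had the lowest change with NTX-301 in HL-60. Its values there were 11.41, 11.53 and 11.51 with DMSO and 11.19, 11.16 and 11.32 with NTX-301, which do not overlap (-0.26 ± 0.0424, adjusted p = 0.000263). In MOLM-13 it stood at 11.82, 11.87 and 11.83 with DMSO, 11.66, 11.69 and 11.66 with DAC and 11.59, 11.48 and 11.44 with NTX-301. There the 3 groups did not overlap, and NTX-301 lay below DAC as well (-0.17 ± 0.0356, adjusted p = 0.0176). MRPL23, whose bacterial counterpart lies at the exit of the peptide tunnel, completed the lowest 3 with DAC in HL-60, where it fell from 11.63, 11.75 and 11.75 to 11.50, 11.40 and 11.45 (-0.26 ± 0.0398, adjusted p = 0.00032).

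In MOLM-13 the lowest 3 with NTX-301 were MRPL14, MRPL36 and MRPL54. MRPL14, a large-subunit protein with a bacterial counterpart, measured 12.07, 12.08 and 12.06 with DMSO, 11.87, 11.72 and 11.77 with DAC and 11.71, 11.72 and 11.64 with NTX-301. Both drug groups lay below DMSO, and NTX-301 gave -0.38 ± 0.0372 (adjusted p = 1.02e-05). MRPL36 went from 10.70, 10.77 and 10.71 with DMSO to 10.37, 10.30 and 10.38 with NTX-301, without overlap (-0.38 ± 0.0376, adjusted p = 1.21e-05). With DAC the lowest 3 in MOLM-13 were MRPL54, MRPL48 (-0.35 ± 0.042, adjusted p = 7.19e-05) and MRPL16 (-0.35 ± 0.0322, adjusted p = 1.32e-05).

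Few members rose, and all of those did so in HL-60. MRPL55, a large-subunit protein, measured 10.71, 10.78 and 10.78 with DMSO, 10.88, 10.92 and 10.83 with DAC and 10.83, 10.84 and 10.92 with NTX-301. The drug samples lay above DMSO, at 0.12 ± 0.0341 for DAC (adjusted p = 0.0219) and 0.11 ± 0.0341 for NTX-301 (adjusted p = 0.0234), and both calls were lost in some fits without 1 sample: 3 of 9 with DAC and 2 of 9 with NTX-301. The second was also lost with each sample centred on its median (adjusted p = 0.0624). MRPL10, which anchors the stalk that recruits translation factors, rose with NTX-301 from 10.44, 10.37 and 10.43 to 10.58, 10.53 and 10.58 (0.15 ± 0.0304, adjusted p = 0.0011). MRPL37 rose with NTX-301 from 12.55 in each DMSO sample to 12.64, 12.66 and 12.65 (0.10 ± 0.0195, adjusted p = 0.000753). In MOLM-13, MRPL37 fell with NTX-301 from 12.32, 12.29 and 12.30 to 12.13, 12.02 and 12.14 (-0.21 ± 0.0331, adjusted p = 0.000317) and was the 1 member that NTX-301 moved in opposite directions in the 2 lines. No member was moved that way by DAC. MRPL10 fell in MOLM-13 with DAC (-0.14 ± 0.0291, adjusted p = 0.00259) and was not called there with NTX-301 (-0.03 ± 0.0291).

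A few members did not pass the test in MOLM-13. With DAC 11 members and with NTX-301 7 were not called there, and MRPS11, MRPS14 and MRPS25 were called in none of the 4 drug-against-DMSO comparisons. MRPS25, a small-subunit protein, measured 13.53, 13.53 and 13.51 with DMSO, 13.55, 13.54 and 13.52 with DAC and 13.48, 13.52 and 13.50 with NTX-301 in MOLM-13. All 3 groups overlapped, and the estimates were 0.01 ± 0.0217 and -0.03 ± 0.0217. MRPL45, which holds the ribosome at the inner membrane near the tunnel exit, had the highest change with NTX-301 in MOLM-13, at 0.08 ± 0.049 (adjusted p = 0.209). Its values were 11.10, 11.21 and 11.24 with DMSO and 11.36, 11.20 and 11.24 with NTX-301, so the groups overlapped, with the first NTX-301 sample the highest. A pseudogene copy, MRPL45P2, was listed in the files too, and reads of such copies may be shared in a way the authors' counting does not reveal.

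**Figure D3:**
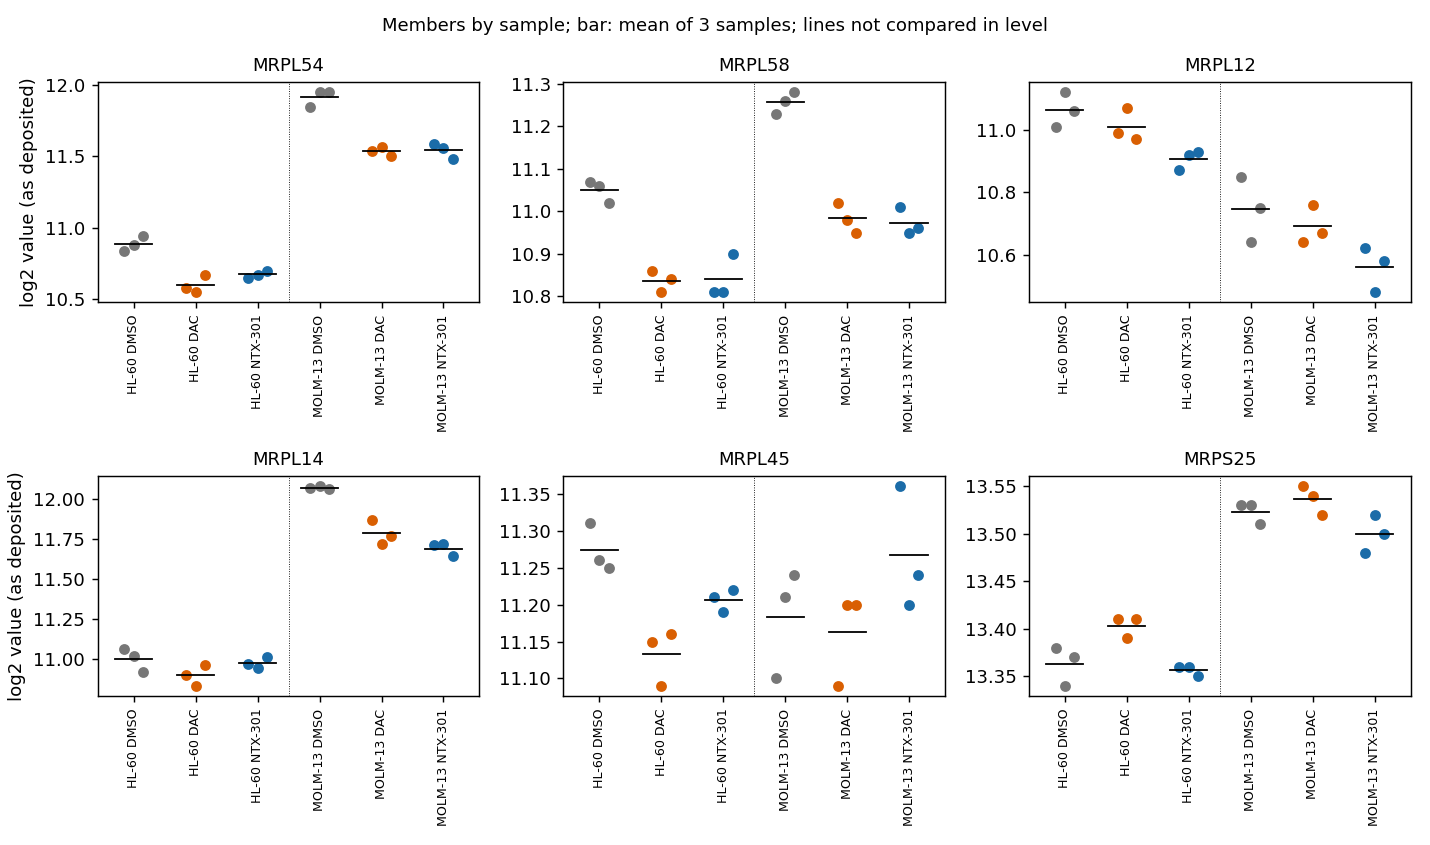
Deposited log2 values (vertical axes, each with its own range) of 6 members in every sample (points) with the mean of 3 samples (bar), by line and treatment. MRPL54 and MRPL58 lay below DMSO in all treated samples, MRPL14 in all treated MOLM-13 samples, and MRPS25 overlapped DMSO in MOLM-13.

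The factor-binding stalk and the decoding site were looked at by name, whatever their values. MRPL12, the stalk protein that also binds the mitochondrial RNA polymerase, fell with NTX-301 in both lines, from 11.01, 11.12 and 11.06 to 10.87, 10.92 and 10.93 in HL-60 (-0.15 ± 0.035, adjusted p = 0.00298) and by 0.19 log2 in MOLM-13 (-0.19 ± 0.0557, adjusted p = 0.0163). In MOLM-13 that call was lost in 2 of 9 fits without 1 sample. MRPL12 was not called with DAC in either line (-0.05 and -0.06). MRPL11, at the base of the stalk, fell with both drugs in MOLM-13 (-0.11 with DAC and -0.29 with NTX-301) and with DAC in HL-60 (-0.10, adjusted p = 0.0181). MRPS12, a small-subunit protein at the decoding centre, fell with NTX-301 in MOLM-13 (-0.19 ± 0.029) and with DAC in HL-60 (-0.10 ± 0.0286), and its change with DAC in MOLM-13 was -0.07 (adjusted p = 0.0944). The HL-60 calls of MRPL11 and MRPS12 were lost in 3 and 4 of 9 fits without 1 sample. They were also lost after quantile normalization (adjusted p = 0.0553 and 0.0646), as was the DAC call of MRPL11 in MOLM-13 (-0.06, adjusted p = 0.0956).

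The 3 MRPS18 copies, which descend from 1 bacterial protein, all fell in MOLM-13 with both drugs. MRPS18C, the copy that takes the bacterial position in the small subunit, changed by -0.33 ± 0.0574 with DAC and -0.35 ± 0.0574 with NTX-301. MRPS18B, elsewhere in the small subunit, changed by -0.21 and -0.20 (SE 0.0392), and MRPS18A of the large subunit by -0.15 with each drug (SE 0.0418). In HL-60 the changes of MRPS18A were -0.08 with DAC and 0.01 with NTX-301, neither of them called, while MRPS18B and MRPS18C fell there with DAC (-0.10 and -0.14, adjusted p = 0.035 and 0.0336). The MRPS18A calls in MOLM-13 were lost in 3 (DAC) and 2 (NTX-301) of 9 fits without 1 sample, and after quantile normalization (adjusted p = 0.0778 and 0.115). Those of MRPS18B and MRPS18C in HL-60 were lost in 4 and 3 of 9 fits without 1 sample. MRPS30 of the large subunit fell in MOLM-13 with both drugs (-0.20 and -0.17, SE 0.0316), as did MRPS27, a helical-repeat protein of the small subunit (-0.18 and -0.12, SE 0.0287). The NTX-301 call of MRPS27 was lost after quantile normalization (-0.01, adjusted p = 0.718). MRPS36, the member that is no ribosomal protein, fell there too (-0.14 and -0.19, SE 0.0482), with adjusted p of 0.0372 and 0.00801. Its DAC values, 10.37, 10.27 and 10.27, overlapped the DMSO values of 10.36, 10.50 and 10.49, and that call was lost in 4 of 9 fits without 1 sample.

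The 2 drugs were compared directly, as NTX-301 minus DAC, which leaves the shared DMSO samples out of the difference. The labels do not settle whether the doses matched. In MOLM-13, 7 members were lower and 1 higher with NTX-301 than with DAC, where 7.42% of all genes were called, 3.01% higher and 4.41% lower, and the median difference was -0.03. MRPL4 showed the widest gap, at 11.46, 11.58 and 11.55 with DAC, 11.35, 11.28 and 11.33 with NTX-301 and 11.59, 11.46 and 11.53 with DMSO. The NTX-301 samples lay below all others (-0.21 ± 0.0408, adjusted p = 0.011), and the call was lost in 1 of 9 fits without 1 sample, that without NTX-301 replicate 2 (-0.19, adjusted p = 0.0549). MRPL11 (-0.18 ± 0.0254, adjusted p = 0.00221) and MRPL41 (-0.17 ± 0.0313, adjusted p = 0.00848) followed, also without overlap. The 1 higher member was MRPL10 (0.11 ± 0.0291, adjusted p = 0.0413), a call lost in 8 of 9 fits without 1 sample. The count of 8 fell to 3 without NTX-301 replicate 3 and to 4 without DAC replicate 2 or NTX-301 replicate 2.

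In HL-60, 20 members were higher and 2 lower with NTX-301 than with DAC, where 30.4% of all genes were called, 15.4% higher and 15% lower, and the median difference was 0.05. That split depended on scaling: it was 16 higher and 8 lower with each sample centred on its median, and 23 and 0 after quantile normalization. MRPL53 differed most, at 9.63, 9.63 and 9.64 with DAC and 9.88, 9.89 and 9.92 with NTX-301 (0.26 ± 0.0423, adjusted p = 0.000366), with DMSO at 9.69, 9.81 and 9.89. MRPL9 (0.18 ± 0.0254, adjusted p = 8.42e-05) and MRPL22 (0.18 ± 0.0303, adjusted p = 0.000509) were alike: DAC lowered each against DMSO, and with NTX-301 their changes against DMSO were -0.01 and 0.05. The 2 lower members were MRPL12 (-0.10 ± 0.035, adjusted p = 0.0371) and MRPL19 (-0.07 ± 0.0232, adjusted p = 0.0458), and these calls were lost in 4 and 7 of 9 fits without 1 sample.

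Whether a drug effect differed between the lines was tested by subtracting the HL-60 effect from the MOLM-13 effect, in 1 fit of all 18 samples over the 15474 genes tested in both. With NTX-301 the effect was lower in MOLM-13 for 55 members and higher for none, where 40% of all genes differed and 22.4% were lower. The median difference over the members was -0.19, against 0.00 over all genes. With DAC it was lower for 27 members and higher for none, where 30% of genes differed and 17.9% were lower, at a median of -0.11. That DAC count was 46 with each sample centred on its median and 14 after quantile normalization. Among genes whose log2 values averaged 10 or more in both lines, 35.5% were lower with NTX-301 and 30.5% with DAC. MRPL14 differed most with NTX-301 (-0.36 ± 0.0577, adjusted p = 6.37e-05): in HL-60 it measured 11.06, 11.02 and 10.92 with DMSO and 10.97, 10.94 and 11.01 with NTX-301, which overlap. MRPL22 was next (-0.35 ± 0.0483, adjusted p = 1.36e-05). With DAC the largest differences were those of MRPL17 (-0.27 ± 0.0707, adjusted p = 0.00709) and MRPL36 (-0.26 ± 0.0582, adjusted p = 0.00215). MRPL17 measured 11.44, 11.61 and 11.56 with DMSO and 11.33, 11.25 and 11.12 with DAC in MOLM-13, and 11.46, 11.60 and 11.55 against 11.48, 11.49 and 11.54 in HL-60. It fell in the first line and overlapped DMSO in the second.

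Members kept some of their order between lines. Across the 78 members, the change in HL-60 and that in MOLM-13 had a Pearson's r of 0.47 and a Spearman's rho of 0.44 with DAC, and 0.36 and 0.32 with NTX-301. These are descriptions across genes, which are not independent replicates, and the points share gene length and base composition but no library. DAC lowered 33 members (42.3%) in both lines, where 6.17% of the 15474 genes tested in both lines were lower in both. NTX-301 lowered 23 (29.5%), where 10.5% of genes were. These 23 are all the members that NTX-301 lowered in HL-60. Both background shares cover genes of all levels, while the members are well expressed. Among genes whose log2 values averaged 10 or more, 21.7% were lower with DAC and 33.7% with NTX-301 in HL-60 alone. A share lower in both lines was not counted for such genes.

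**Figure D4:**
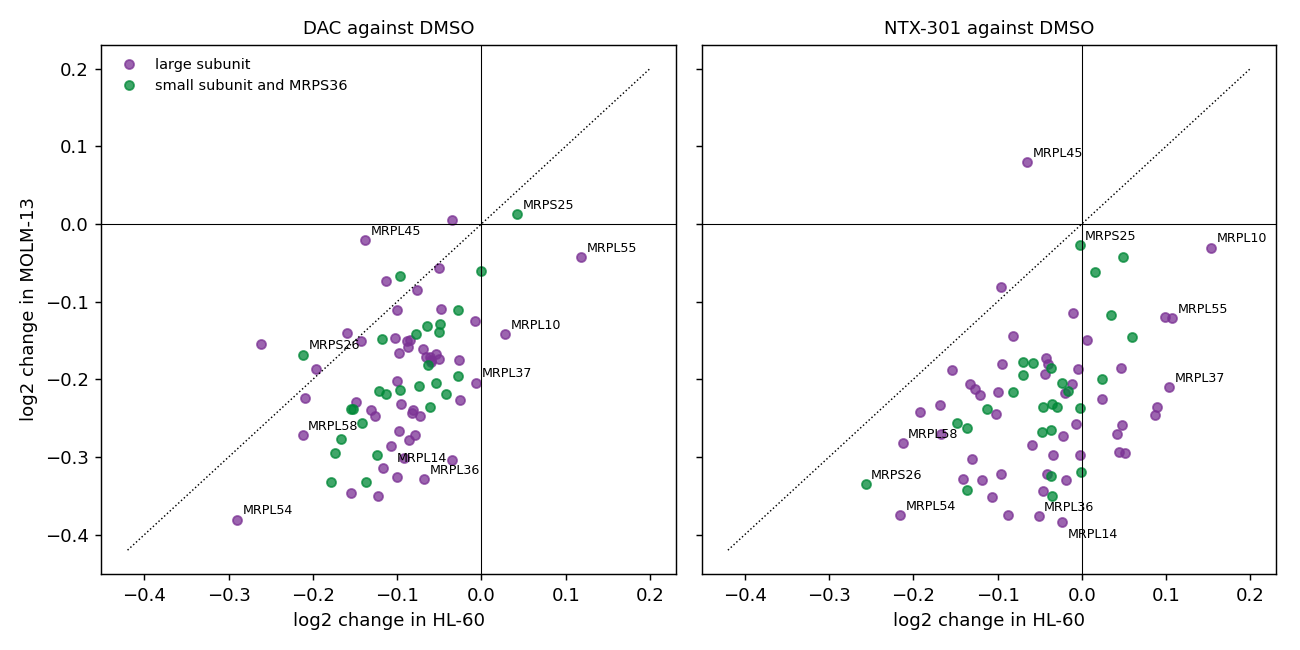
Log2 change against DMSO in HL-60 (horizontal axis) and MOLM-13 (vertical axis) of the 78 members, 1 point per gene, for DAC (left) and NTX-301 (right); the dotted line marks equal changes. All but 8 points with DAC and all but 2 with NTX-301 lie below the dotted line, and MRPL54 is at the lower left with both drugs.

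Exon length moved with the changes in MOLM-13 and with those of DAC in HL-60, but hardly with those of NTX-301 in HL-60. Protein-coding genes whose log2 values averaged 10 or more were split by length. A length here merges the exons of all coding transcripts of a gene, and can exceed that of its main mRNA. In MOLM-13, the shorter of them fell more often in general: with NTX-301, 71.1% of 581 protein-coding genes of that level and under 1.5 kb of exon were lower, against 59.4% of 2133 genes of 1.5 to 3 kb and 38.5% of 5218 genes over 3 kb. Mitoribosomal proteins are small, and 31 of the 78 members fell in the shortest class, 36 in the middle and 11 in the longest. Within the classes, 30 of 31, 32 of 36 and 9 of 11 members were lower with NTX-301, at medians of -0.26, -0.22 and -0.21, where the genes of the same class had medians of -0.18, -0.13 and -0.04. With DAC in MOLM-13 it was 28, 30 and 9 members, beside 62.1%, 49.5% and 34.1% of the genes. In HL-60 with DAC, 14, 17 and 5 members were lower, beside 39.6%, 25.3% and 18.8% of the genes. With NTX-301 in HL-60, 9, 9 and 5 were lower, beside 35.1%, 35% and 33.6%. Across the 78 members the Spearman's rho between change and exon length was 0.31 (DAC) and -0.02 (NTX-301) for HL-60, beside 0.23 and 0.29 for MOLM-13. The length classes were set after the values were seen, and the part of length in the members' changes was not tested beyond these counts.

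**Figure D5:**
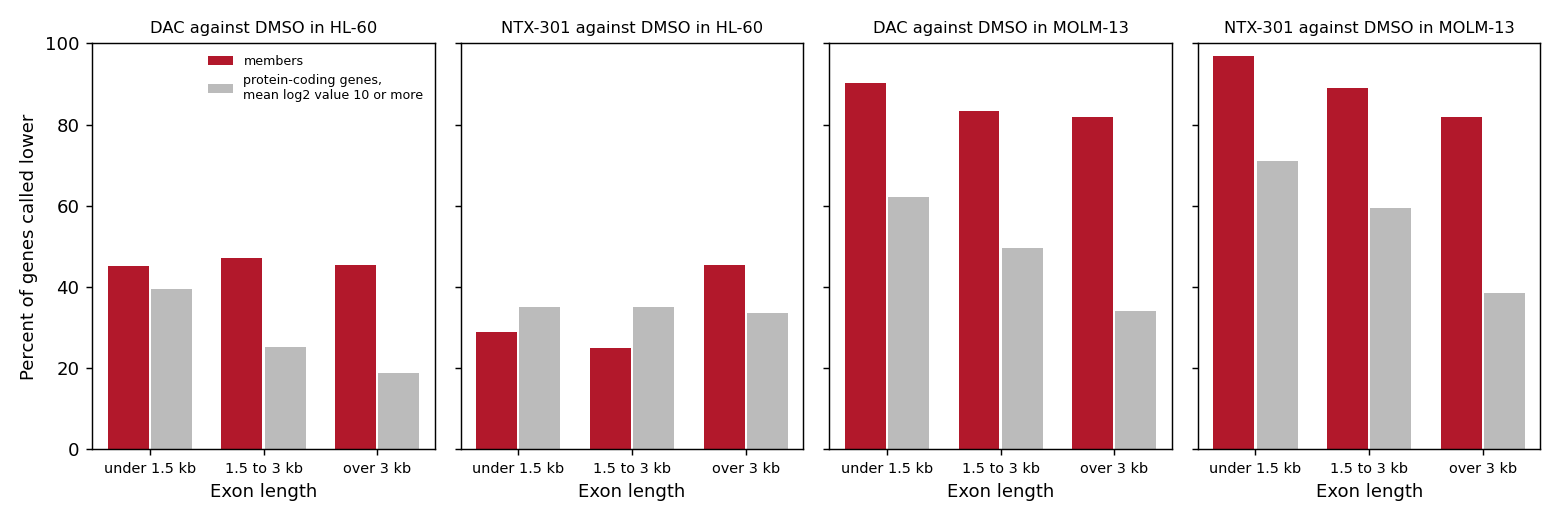
Percent of genes called lower (vertical axis, from 0) by exon length (horizontal axis) for the members (red) and protein-coding genes whose log2 values averaged 10 or more (grey), in the 4 drug-against-DMSO comparisons. In MOLM-13 the members' bars stand above the grey bars in each length class, and with NTX-301 in HL-60 they stand below them in the 2 shorter classes.

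Genes that work with the mitoribosome were counted in the same fits. Beside them, 21.2% of all genes were called lower with DAC and 24.8% with NTX-301 in MOLM-13, and 12.6% and 19.2% in HL-60. Among genes whose log2 values averaged 10 or more, these shares were 39.9% and 45.9% in MOLM-13, and 21.7% and 33.7% in HL-60. Of 28 genes for its assembly and for modifying its RNA, 19 fell with DAC and 22 with NTX-301 in MOLM-13, and none rose. The lowest with NTX-301 were the assembly factors MPV17L2 (-0.32 ± 0.063) and MALSU1 (-0.31 ± 0.0398). In HL-60, 13 fell with DAC, and 13 fell and 1 rose with NTX-301; the riser was the RNA nuclease gene YBEY (0.20 ± 0.0433). Of 17 mitochondrial translation factors and partners, 12 fell with each drug in MOLM-13, led by SLIRP, which stabilizes mitochondrial mRNAs (-0.33 and -0.36, SE 0.0368), and by the elongation factor TSFM (-0.28 and -0.26, SE 0.0238). In HL-60, 4 of the 17 fell with DAC, and 5 fell and 1 rose with NTX-301. Those HL-60 falls were near the shares of genes averaging 10 or more.

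Of 10 genes for maintaining and transcribing mitochondrial DNA, 5 fell with DAC and 7 with NTX-301 in MOLM-13, among them TFB2M (-0.25 and -0.35, SE 0.0364) and TFAM (-0.17 and -0.34, SE 0.036), both needed to start transcription. In HL-60, 4 fell and 1 rose with DAC, and 5 fell and 1 rose with NTX-301, where the exonuclease gene MGME1 rose with both (0.14 and 0.40, SE 0.0327) and the polymerase gene POLRMT fell with both (-0.19 and -0.27, SE 0.0286). Among 8 listed regulators of mitochondrial gene expression, 5 and 6 fell in MOLM-13 and 4 and 6 in HL-60, and none rose. In MOLM-13, GABPB1 fell with each drug (-0.30 and -0.29, SE 0.0412). The shares of all genes called lower were 21.2% (DAC) and 24.8% (NTX-301) in MOLM-13, and 12.6% and 19.2% in HL-60. For genes whose log2 values averaged 10 or more they were 39.9% and 45.9% in MOLM-13, and 21.7% and 33.7% in HL-60.

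The mRNAs that the mitoribosome itself translates moved the other way in MOLM-13. Of the 13 mRNAs encoded in mitochondrial DNA, 9 rose with DAC and 10 with NTX-301, and none fell, at median changes of 0.21 and 0.22. ATP6 measured 9.73, 9.79 and 9.81 with DMSO, 10.03, 10.06 and 10.12 with DAC and 10.16, 10.08 and 10.11 with NTX-301, so both drug groups lay above DMSO (0.29 and 0.34, SE 0.0407). In HL-60, 3 rose with DAC, and 2 rose and 2 fell with NTX-301. The shares of all genes called higher were 15.4% (DAC) and 20.3% (NTX-301) in MOLM-13, and 11.6% and 18.3% in HL-60. With NTX-301 in HL-60, 19.2% were called lower.

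Other protein-coding lists showed where the members' fall was shared. Of 80 nuclear respiratory chain genes tested in MOLM-13, 59 fell and 1 rose with DAC and 71 fell with NTX-301, at medians of -0.14 and -0.20. Of 82 cytosolic ribosomal proteins there, 21 fell and 4 rose with DAC and 25 fell and 4 rose with NTX-301, at medians of -0.06 and -0.05. In HL-60 with DAC, 63 of 81 cytosolic ribosomal protein genes fell, at a median of -0.11. The sample medians of the respiratory chain genes with DAC in HL-60 were -0.08, -0.10 and -0.05. Those of the members were close, at -0.09, -0.12 and -0.06. With NTX-301 in HL-60 the respiratory chain medians were -0.02, -0.04 and 0.01, and the cytosolic medians -0.03, -0.06 and 0.02. Beside these counts, 21.2% of all genes were lower with DAC and 24.8% with NTX-301 in MOLM-13, and 12.6% with DAC in HL-60. For genes whose log2 values averaged 10 or more, the shares were 39.9%, 45.9% and 21.7%. The differences between the lists were not tested.

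Markers of the myeloid lineage moved in both lines as well. Of the 6 myeloid markers SPI1, CD33, CEBPA, ITGAM, LYZ and MPO, 4 rose with DAC in MOLM-13, and 2 rose and 1 fell with NTX-301, at medians of 0.40 and 0.05. In HL-60, 1 rose and 3 fell with DAC, and 1 rose and 4 fell with NTX-301. Of 5 markers of KMT2A-rearranged leukaemia (HOXA9, HOXA10, MEIS1, FLT3 and PBX3), 4 fell with DAC in MOLM-13, among them FLT3 (-0.29 ± 0.025). With NTX-301, 2 of the 5 fell there and 2 rose. In HL-60, 3 of the 5 were tested, where FLT3 alone fell with DAC (-0.09 ± 0.0294) and none was called with NTX-301. Of the 5 granule markers MPO, ELANE, PRTN3, AZU1 and CTSG, all 5 fell with NTX-301 in HL-60, at a median of -0.35 and led by PRTN3 (-0.76 ± 0.0327), while 2 rose and 1 fell with DAC there. In MOLM-13, 3 of these 5 rose with DAC, and 2 rose and 1 fell with NTX-301. Beside these counts, 15.4% of all genes rose and 21.2% fell with DAC in MOLM-13, and 20.3% and 24.8% with NTX-301. In HL-60 the shares were 11.6% and 12.6% with DAC, and 18.3% and 19.2% with NTX-301. The part of these markers in the members' changes was not tested.

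Promoter letters were read for 70 of the 78 members with a RefSeq entry (GRCh38.p14), as 250 bases before and 50 after the transcription start. They were searched on both strands for 4 motifs: NRF1 (CGCATGCG), ETS, the letters bound by GABP (CCGGAAGT), YY1 (AAGATGGC) and the E-box (CACGTG). No motif contains or overlaps the letters of another. The NRF1 letters were in 3 of 70 member promoters (4.29%) and in 2.88% of 15843 protein-coding promoters, and the E-box in 7 (10%) and 8.88%. The ETS letters were in 11 (15.7%), against 6.19% of protein-coding and 4.44% of all 27305 promoters. The YY1 letters were in 20 (28.6%), against 3.91% and 3.03%. A match is a description and no site of binding.

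The 200 bases before the start are shown for 4 members, with ETS letters in capitals. MRPL54 and MRPS34 were lower in all 4 comparisons, as was MRPL3, the member with the highest HL-60 level, and MRPS25 was called in none. MRPL3 has the ETS letters 32 bases before the start, and MRPS34 has them on the other strand, 20 bases before it. MRPL54 and MRPS25 hold none of the 4 motifs in their windows. The regions are chr19:3762482-3762681 (plus strand) for MRPL54, chr3:131502972-131503171 (minus) for MRPL3, chr16:1773135-1773334 (minus) for MRPS34 and chr3:15065316-15065515 (minus) for MRPS25.
MRPL54: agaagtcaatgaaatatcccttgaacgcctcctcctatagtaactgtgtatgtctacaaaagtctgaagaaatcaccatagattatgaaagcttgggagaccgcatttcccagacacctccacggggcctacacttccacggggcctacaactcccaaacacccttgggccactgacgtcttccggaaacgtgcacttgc
MRPL3: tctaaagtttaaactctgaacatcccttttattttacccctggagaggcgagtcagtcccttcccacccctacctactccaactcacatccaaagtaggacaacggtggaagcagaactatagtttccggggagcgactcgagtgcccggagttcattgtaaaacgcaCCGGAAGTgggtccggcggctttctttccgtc
MRPS34: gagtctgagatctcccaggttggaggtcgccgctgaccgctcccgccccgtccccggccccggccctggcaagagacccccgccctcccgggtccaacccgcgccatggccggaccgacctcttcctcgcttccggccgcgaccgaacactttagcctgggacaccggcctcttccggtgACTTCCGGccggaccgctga
MRPS25: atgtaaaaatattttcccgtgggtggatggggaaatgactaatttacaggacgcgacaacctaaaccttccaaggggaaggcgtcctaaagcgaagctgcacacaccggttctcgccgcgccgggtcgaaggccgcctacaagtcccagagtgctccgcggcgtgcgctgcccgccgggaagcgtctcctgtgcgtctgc

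In 15 of the 20 members with YY1 letters these lay on the gene's own strand within 50 bases after the start, which held for 21.4% of member promoters, 2.18% of protein-coding promoters and 1.39% of all. The letters contain ATG. For 14 of the 15 the window held 10 bases on either side, and in 11 of these 14 the ATG was an annotated start codon in GENCODE v29 (GRCh38), so in those genes the match covers the first codons. It is shown for 6 members in 28 bases, with the match in capitals: 3 with a small-subunit role (MRPS10, MRPS18B, MRPS27), MRPS18A and MRPL46 of the large subunit, and MRPL45, which was not called in MOLM-13. In the same order they lie at chr6:42217835-42217862 (minus strand), chr6:30617853-30617880 (plus), chr5:72320207-72320234 (minus), chr6:43687765-43687792 (minus), chr15:88467363-88467390 (minus) and chr17:38297171-38297198 (plus).
MRPS10: cgggaccggcAAGATGGCggcgcggaca
MRPS18B: ggcgtacgtcAAGATGGCggcgtctgta
MRPS27: ggtacgctccAAGATGGCtgcctccata
MRPS18A: taggtttttgAAGATGGCggccctcaag
MRPL46: gggagaacgaAAGATGGCggcgcccgta
MRPL45: ttgcgggaacAAGATGGCagcccccata

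The calls were also counted by these letters. With NTX-301 in MOLM-13, 19 of 20 members with YY1 letters and 45 of 50 without were lower, at medians of -0.22 and -0.24, and 10 of 11 with ETS letters and 54 of 59 without, at -0.26 and -0.22. With DAC in HL-60, 9 of 11 members with ETS letters were lower and 24 of 59 without, at medians of -0.14 and -0.08. With NTX-301 in HL-60 it was 3 of 11 and 18 of 59, at -0.04 and -0.04. These differences were not tested.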

How the data were processed

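Per the labels' protocols, total RNA was made into stranded libraries. The submitters' processing notes name FastQC, Trimmomatic 0.38, HISAT2, StringTie and hg19, with no role or order. The authors deposited 1 normalized log2 value per gene and sample. The normalization, the depth and the use of strand in counting are not given in the sources used here, so the precision rests on the replicates, and reads of overlapping or copied genes may be shared.

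The members, lists and rules were chosen with earlier results of these data known. Genes entered the test if 3 or more samples had a linear value of 1 or more. The test was limma 3.58.1 in R 4.3.3 (two-sided, eBayes with trend, on all 9 samples of a line or on all 18 for line differences), adjusted by Benjamini-Hochberg over all genes at a threshold of 0.05. The filter removed 64 genes in HL-60. The steps were tested on simulated data. Named members are, per comparison, the 3 highest and 3 lowest called without overlap (2 and 2 for line differences), plus 10 named for their role (MRPL11, MRPL12, MRPL58, MRPS12, MRPS18A, MRPS18B, MRPS18C, MRPS27, MRPS30 and MRPS36). Members named for their place in a count or order (MRPL3, MRPL13, MRPL33, MRPL45, MRPS11, MRPS14, MRPS25, MRPS33, MRPS34 and those in the promoter lists) were chosen after their values were seen. Exon lengths are merged exons of GENCODE v29, used as lengths only, and promoters are RefSeq's on GRCh38.p14. Alternatives were another filter, another centring, quantile normalization, no trend, a replicate block, 2 groups alone and each sample left out.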

Additional observations from a re-analysis of the deposited data

Results flagged for a closer look

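For 2 comparisons the drug effect itself differed between the lines by limma's interaction test with Benjamini-Hochberg adjustment. With DAC this held for 27 of 78 members (34.6%), where 30% of all genes differed, and with NTX-301 for 55 (70.5%), where 40% did, each time with the lower effect in MOLM-13. Of all genes, 17.9% (DAC) and 22.4% (NTX-301) were lower. Among genes whose log2 values averaged 10 or more in both lines, 30.5% and 35.5% were lower. The DAC share of 34.6% is above the 17.9% and near the 30.5%. Its count was 14 after quantile normalization and 46 with each sample centred on its median. The named members were MRPL17 (-0.27) and MRPL36 (-0.26) with DAC, and MRPL14 (-0.36) and MRPL22 (-0.35) with NTX-301. Line and stated concentration cannot be told apart in these differences.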

How the results depend on the processing

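The fall in MOLM-13 kept its direction under each alternative run: between 60 and 73 members were called with DAC and between 67 and 75 with NTX-301 (75 once the 5 genes with other symbols were added and MRPS36 left out), all lower apart from 1 higher call each after quantile normalization. With each sample centred on its median, the members' median was -0.067 with NTX-301 in HL-60, and -0.24 with DAC and -0.27 with NTX-301 in MOLM-13. After quantile normalization the MOLM-13 medians were -0.15 and -0.17 and the median NTX-301 line difference was -0.14. The DAC line difference counted 46 members with centring and 14 after quantile normalization. Without single replicates the NTX-301 minus DAC comparison in MOLM-13 ran from 3 to 8 members and from -0.049 to -0.0075 in its median. Other counts ranged from 25 to 42 (DAC in HL-60, lowest without DMSO replicate 2), 21 to 28 (NTX-301 in HL-60), 15 to 28 (NTX-301 minus DAC in HL-60), 21 to 32 (DAC line difference) and 48 to 59 (NTX-301 line difference). Changes that reversed were not called to begin with: with NTX-301 in HL-60, MRPS18A (-0.022) and MRPS18B (-0.0044) after centring, and MRPS18A (from -0.031 to 0.032) and MRPS36 (from -0.072 to 0.028) without single replicates. The cause was not tested.

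Replicate numbers did not pair the samples: deviations of same-numbered samples correlated from -0.06 to 0.12 (HL-60) and from -0.16 to 0.11 (MOLM-13). With the replicate number as a block the counts for DAC and NTX-301 were 39 and 27 (HL-60) and 66 and 71 (MOLM-13), 23 and 7 for NTX-301 minus DAC, and 26 and 51 for the line differences. The block ended 3 single calls: MRPL10 (NTX-301 minus DAC, MOLM-13, adjusted p = 0.0727), MRPL19 (NTX-301 minus DAC, HL-60, adjusted p = 0.0503) and MRPS36 (DAC, MOLM-13, adjusted p = 0.0613). Among the calls of named members, quantile normalization ended 10, the fit without the trend 4 and that of 2 groups alone 3. Not all of these are named above.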
